A study of Mus musculus with 12 samples.

Results

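Leukocyte adhesion was followed through 9 genes of the 750 in the deposited table: the β2 integrin chains Itgal, Itgam, Itgax and Itgb2, the leukocyte sialomucins Selplg and Spn, and the ligands Icam1, Icam2 and Vcam1. They were taken by gene symbol, all 9 were found, and all 9 passed the filter on low values (at least 20 normalized counts in at least 3 tumors), as did 689 genes in all. RNA was measured in 12 transplanted tumors of the model labelled K14-Cre;Brcaf/fTrp53f/f (K14-Cre-Brca1f/f;Trp53f/f in the study), a triple negative mouse mammary carcinoma in which Cre under the keratin 14 promoter deletes Brca1 and Trp53 in epithelium. The hosts were FVB/129P2 females, syngeneic to the tumors and given them into the mammary fat pad, with their own immune cells, and were taken 3 days after treatment began. There were 4 groups of 3 tumors each: vehicle (tumors 1269, 1529 and 1536), ADU-S100 (1506, 1512 and 1513), olaparib (1510, 1517 and 1521) and the combination of both drugs (1251, 1270 and 1539). Olaparib, a PARP inhibitor, was injected into the peritoneum daily at 50 mg/kg. ADU-S100, a cyclic dinucleotide that activates STING, was injected once into the tumor, 50 μg in 40 μl. Every mouse had both kinds of injection, since diluted DMSO replaced olaparib and saline replaced ADU-S100 where a drug was left out. The ages of the mice are not given in the sources used here.

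Leukocytes leave the blood in steps. Selplg encodes PSGL-1, the sialomucin that carries leukocytes along selectins on the vessel wall, and Spn encodes CD43, another large sialomucin of leukocytes. Firm adhesion follows through the β2 integrins, in which 1 of several α chains pairs with CD18, the product of Itgb2: Itgal gives LFA-1 of lymphocytes and other leukocytes, Itgam gives Mac-1 of neutrophils, monocytes and macrophages, and Itgax gives CD11c/CD18 of dendritic cells and many macrophages. LFA-1 binds ICAM-1 and ICAM-2. ICAM-1 is induced by inflammatory cytokines on endothelium and on many other cells, ICAM-2 is held constitutively by endothelium and some leukocytes, and VCAM-1 is an inducible ligand of the α4 integrins.

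Itgal, Itgam, Itgax and Spn lie on chromosome 7, Itgb2 on 10, Selplg on 5, Icam1 on 9, Icam2 on 11 and Vcam1 on 3 in the RefSeq annotation of GRCm38.p6. Promoter sequence was at hand for Itgam, Itgax, Spn and Icam1. Patterns known from myeloid, inflammatory and interferon-induced genes were looked for on both strands of the 300 bases around each start: the PU.1 core GAGGAA (in 28.3% of 32851 promoters), the NF-kB pattern of GGG and CC with 5 free bases between (50.8%), the GAS pattern TTCNNNGAA (8.3%) and the ISRE pattern, GAAA repeated after 2 free bases (3.44%). The start is that of a transcript in the sequence table, which is the start of the annotated gene for Itgam and Icam1 but lies 24 bases inside it for Itgax and 7729 bases inside it for Spn. The 250 bases before that start are shown for Itgam and Itgax, α chains on the same chromosome whose values went apart in the combination, and for Icam1, the inducible ligand. Capitals mark matches.
Itgam (chr7:128062390-128062639, + strand): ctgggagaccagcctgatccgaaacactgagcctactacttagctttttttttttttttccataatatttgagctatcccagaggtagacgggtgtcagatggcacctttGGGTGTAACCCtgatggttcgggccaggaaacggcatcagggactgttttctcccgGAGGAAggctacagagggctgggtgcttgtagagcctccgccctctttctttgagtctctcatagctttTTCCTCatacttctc
Itgax (chr7:128129300-128129549, + strand): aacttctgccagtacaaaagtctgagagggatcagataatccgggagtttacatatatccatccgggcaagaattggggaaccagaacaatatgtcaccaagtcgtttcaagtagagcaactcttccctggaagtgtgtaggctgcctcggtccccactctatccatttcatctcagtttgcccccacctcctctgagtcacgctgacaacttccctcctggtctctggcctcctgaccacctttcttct
Icam1 (chr9:21015690-21015939, + strand): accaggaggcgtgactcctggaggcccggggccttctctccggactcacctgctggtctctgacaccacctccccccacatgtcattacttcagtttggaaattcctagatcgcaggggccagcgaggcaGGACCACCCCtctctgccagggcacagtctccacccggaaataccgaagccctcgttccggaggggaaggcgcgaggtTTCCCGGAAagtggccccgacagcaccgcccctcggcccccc
The Itgam promoter held GAGGAA at -84 on the + strand and at -15 on the - strand, counted from the start, and again at 33 beyond the stretch shown. Its NF-kB matches at -140 and -139 overlap, one on each strand. Icam1 held an NF-kB match at -120 on the - strand and a GAS match at -42, Spn held NF-kB matches at -40 and -229, and none of the patterns was found in the Itgax window. These matches are letters in a sequence, and binding was not measured.

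Values are normalized counts of nCounter probes, which hybridize to RNA and are counted one by one. Since probes differ in how well they hybridize, the level of a gene was compared between tumors and not with the level of another gene. The total of the counts recovered from the deposited values lay between 632152 and 1519471 in vehicle, 372390 and 683982 in ADU-S100, 106206 and 1392128 in olaparib, and 1339258 and 1491854 in combination tumors. Olaparib tumor 1517 was the shallowest, and its values were multiplied by 10.5, against 0.589 to 2.85 in the other tumors. Epithelial genes were present in all tumors, with the sum of Epcam, Cdh1 and Muc1 between 10802 and 22177. In such tissue RNA, fewer cells of a type and less RNA per cell cannot be told apart.

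The combination tumors had the highest levels of Itgal, the α chain of LFA-1, without exception. Itgal measured 73.7, 72.8 and 68.6 in vehicle tumors 1269, 1529 and 1536, and 103, 76.6 and 74.2 in ADU-S100 tumors 1506, 1512 and 1513. It measured 54.6, 168 and 93.1 in olaparib tumors 1510, 1517 and 1521, and 178, 196 and 203 in combination tumors 1251, 1270 and 1539. The group means were 71.7 ± 2.73, 84.5 ± 15.7, 105 ± 57.5 and 192 ± 12.6 (SD, n = 3 each). Only tumor 1517 came near the combination, and its value rests on 16 counts, with a 95% Poisson interval of 95.8 to 272 normalized counts that covers counting error alone.

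Selplg, which encodes PSGL-1, was also highest in the combination tumors. Its values were 154, 236 and 206 in vehicle, 356, 218 and 146 in ADU-S100, 218, 231 and 184 in olaparib, and 420, 358 and 363 in combination tumors, with tumors in the order given above for Itgal here and below. All combination tumors were again above the 9 others, although ADU-S100 tumor 1506 lay just beneath them. Such a separation was seen for 2 of the 9 genes, Itgal and Selplg, against 3.19% of the 689 genes. After scaling to Ptprc, the CD45 gene of leukocytes, it was seen for 0 of the 9, against 1.02% of the 688 genes other than Ptprc. Itgal to Ptprc was 0.456 to 0.480 in the combination but 0.484 in vehicle tumor 1269 and 0.483 in olaparib tumor 1521. Selplg to Ptprc was 0.846 to 1.08 in the combination but 1.01 and 0.957 in the same other tumors. Itgal and Selplg were among the genes that the study had selected on these same tumors, so their separation is not independent evidence. For Itgal the study also reported a significant increase after the combination by quantitative PCR, which was not analysed here. In an exact permutation test of the combination against the 9 other tumors on the log2 scale (220 splits, two-sided), the difference was 1.20 for Itgal and 0.85 for Selplg, with p = 0.0045 for each, the smallest that 220 splits allow, and 0.261 after Benjamini-Hochberg adjustment over 689 genes.

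Itgax and Spn were also highest in the combination on average, with some overlap. Itgax, the CD11c chain, measured 83.9, 95.1 and 63.0 in vehicle, 105, 104 and 72.8 in ADU-S100, 160, 105 and 105 in olaparib, and 222, 145 and 180 in combination tumors. The overlap came from a single pair, olaparib tumor 1510 at 160 above combination tumor 1270 at 145. Spn, the CD43 gene, measured 81.2, 49.1 and 42.3 in vehicle, 120, 76.6 and 45.7 in ADU-S100, 85.7, 83.8 and 53.0 in olaparib, and 143, 116 and 134 in combination tumors. Here ADU-S100 tumor 1506 was above combination tumor 1270. In the exact permutation test against the 9 others, the log2 difference was 0.89 for Itgax (p = 0.0091, adjusted 0.348) and 0.96 for Spn (p = 0.0182, adjusted 0.482). At an unadjusted p under 0.05 in this test the combination was higher for 4 of the 9 genes (Itgal, Selplg, Itgax and Spn), against 7.98% of all genes. In tumor 1517 the 2 genes rest on 10 and 8 counts.

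**Figure D1:**
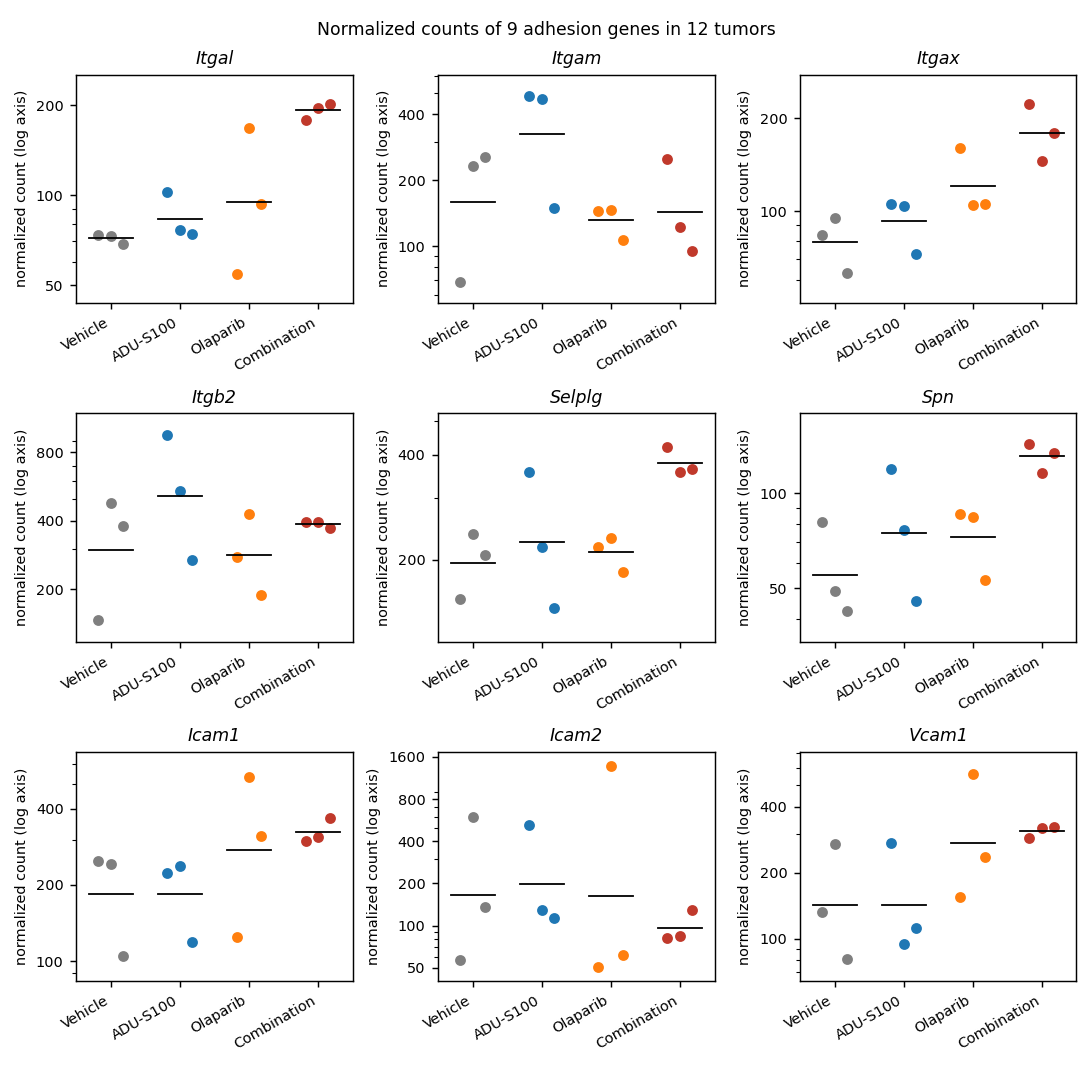
Normalized counts (log axis) of the 9 genes in 12 tumors; points are tumors, from left to right in the order of the text, and lines are means of the 3 log2 values of a group. All combination tumors lie above the 9 others for Itgal and Selplg, while Itgam and Itgb2 are highest in ADU-S100 tumor 1506 and Icam2 in olaparib tumor 1517.

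The chains Itgam and Itgb2 had another pattern, with their highest values after ADU-S100 alone. Itgam, the CD11b chain of myeloid cells, measured 68.9, 232 and 256 in vehicle, 487, 470 and 150 in ADU-S100, 144, 147 and 107 in olaparib, and 251, 123 and 95.1 in combination tumors. Itgb2, the shared β chain, measured 147, 477 and 378 in vehicle, 948, 538 and 268 in ADU-S100, 277, 430 and 190 in olaparib, and 396, 394 and 371 in combination tumors. The groups overlapped for both genes in every comparison made. The 3 combination tumors were close together for Itgb2 (387 ± 14.2, against 334 ± 169 in vehicle), while ADU-S100 tumor 1513 was on the level of the vehicle tumors for both genes. The exact permutation test against the 9 others gave a log2 difference of -0.40 for Itgam (p = 0.505) and 0.14 for Itgb2 (p = 0.759).

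Of the ligands, Icam1 and Vcam1 were higher on average in both groups given olaparib, but in olaparib alone this rested largely on tumor 1517. Icam1 measured 248, 242 and 105 in vehicle, 222, 238 and 118 in ADU-S100, 125, 534 and 313 in olaparib, and 297, 309 and 368 in combination tumors. Vcam1 measured 132, 271 and 80.4 in vehicle, 273, 94.3 and 111 in ADU-S100, 154, 566 and 236 in olaparib, and 286, 318 and 322 in combination tumors. For both genes the combination tumors were above all vehicle and all ADU-S100 tumors and inside the wide range of the olaparib tumors. The log2 difference from the 9 others was 0.61 for Icam1 (exact permutation p = 0.223) and 0.80 for Vcam1 (exact permutation p = 0.141).

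Icam2 varied most of the 9 genes and did so within groups. It measured 57.3, 596 and 136 in vehicle, 521, 130 and 113 in ADU-S100, 50.7, 1383 and 61.9 in olaparib, and 81.8, 84.1 and 130 in combination tumors. One tumor in each group other than the combination, namely 1529, 1506 and 1517, was far above its group. Its highest value was 27.3 times its lowest, against 2.89 (Selplg) to 7.07 times (Itgam) for the other genes. The same tumors had the highest scaling factors of their groups, 1.49, 2.85 and 10.5, and the highest levels of the endothelial gene Pecam1, 2359, 1985 and 8625, against 105 to 507 in the other 9 tumors. The summed level of 8 endothelial genes (Pecam1, Cdh5, Kdr, Tek, Tie1, Eng, Cd34 and Vwf) was 12698, 11137 and 33964 in these tumors. The part of endothelial content and of scaling in the Icam2 values was not tested.

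Against vehicle, limma fitted to all 12 tumors gave log2 fold changes in the combination of 1.41 for Itgal (SE 0.42, adjusted p = 0.278), 1.23 for Spn (SE 0.44, adjusted p = 0.440), 1.16 for Itgax (SE 0.37, adjusted p = 0.347) and 0.95 for Selplg (SE 0.39, adjusted p = 0.504). The ligands followed with 1.11 for Vcam1 (SE 0.61, adjusted p = 0.693), 0.80 for Icam1 (SE 0.56, adjusted p = 0.835) and -0.79 for Icam2 (SE 1.21, adjusted p = 0.989). Itgb2 stood at 0.37 and Itgam at -0.16. Without vehicle tumor 1536, Vcam1 was 0.70 and Icam1 0.40, while each tumor left out in turn moved Itgal, Itgax, Selplg and Spn by less than 1.5 times. With Benjamini-Hochberg adjustment, limma called 0 of the 9 genes, as it called 0.0% of the 689. At an unadjusted p under 0.05, 4 of the 9 were higher (Itgal, Itgax, Spn and Selplg), against 7.55% of all genes, and 0 were lower, against 0.145%. The groups did not overlap, with the combination higher, for 6 of the 9 genes, against 18.4% of all genes, and was lower for 0, against 1.6%. The median log2 fold change was 0.95 over the 9 genes and 0.21 over all genes, and 7 of the 9 had the higher mean, against 65.3% of all genes. Scaling each tumor to the same median brought the median of all genes in this comparison to 0.01, and left the sign of each of the 9 genes as it was. Scaling each tumor to Ptprc brought the median of all genes to -0.33 and the values of the 9 genes down with it. Itgal then stood at 0.86, Spn at 0.68, Itgax at 0.61, Selplg at 0.40, Vcam1 at 0.56 and Icam1 at 0.26. Itgam stood at -0.71 and Icam2 at -1.34, and Itgb2 turned to -0.18, the only change of sign.

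Against ADU-S100 alone, the combination had log2 fold changes of 1.19 for Itgal (SE 0.42, limma adjusted p = 0.492), 1.11 for Vcam1, 0.94 for Itgax, 0.81 for Icam1, 0.80 for Spn and 0.75 for Selplg. Itgam stood at -1.18 (SE 0.63, limma adjusted p = 0.544), Itgb2 at -0.41 and Icam2 at -1.02. Itgal and Itgax were higher at an unadjusted p under 0.05, 2 of 9 against 4.5% of all genes. The groups did not overlap for Itgal, Itgax, Selplg, Icam1 and Vcam1, 5 of 9 against 10.4%, and the combination was lower without overlap for 0, against 20.9%. The mean was higher for 6 of 9, against 40.3%. The median was 0.80 over the 9 genes and -0.22 over all genes. Without ADU-S100 tumor 1513 the differences were 0.49 for Icam1, 0.45 for Spn, 0.44 for Selplg and -0.88 for Itgb2, and without tumor 1506 they were 0.025 for Itgb2 and -0.32 for Icam2. Scaling to Ptprc moved all 9 genes up here, with Itgal at 1.52, Itgax at 1.28, Spn at 1.13, Selplg at 1.09 and Itgam at -0.84.

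Against olaparib alone, the log2 fold changes were 1.01 for Itgal (SE 0.42, limma adjusted p = 0.594), 0.85 for Selplg, 0.84 for Spn, 0.57 for Itgax and 0.45 for Itgb2. The ligands Icam1 (0.23, SE 0.56) and Vcam1 (0.17, SE 0.61), like Itgam (0.13, SE 0.63), had small estimates with wide errors. Icam2 stood at -0.76 (SE 1.21). Without olaparib tumor 1517, Icam1 was 0.71, Vcam1 0.69 and Icam2 0.77, and without 1510 they were -0.34, -0.25 and -1.60. Only Itgal was higher at an unadjusted p under 0.05, 1 of 9 against 4.5% of all genes, and 0 were lower, against 2.76%. The groups did not overlap for Itgal, Selplg and Spn, 3 of 9 against 11%, and the combination was lower without overlap for 0, against 1.74%. The mean was higher for 8 of 9, against 41.4%. The median was 0.45 over the 9 genes and -0.15 over all genes. Itgal was 0.62 without olaparib tumor 1510, and Itgb2 was 0.17 without tumor 1521 and 0.75 without 1517. Scaling to Ptprc brought Itgal to 0.67, Selplg to 0.51, Spn to 0.50 and Itgax to 0.22. It turned Icam1 to -0.11, Vcam1 to -0.17 and Itgam to -0.22. Limma called 0 of the 9 genes after adjustment in this comparison and in the one with ADU-S100, and 0.0% of all genes in either. The 3 comparisons share the combination tumors and are not independent of each other.

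**Figure D2:**
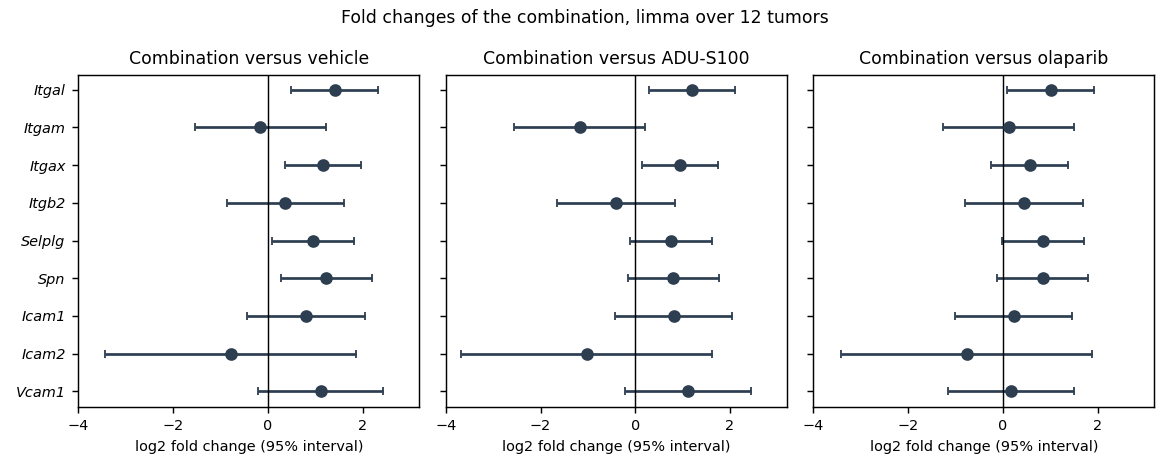
Log2 fold changes of the 9 genes in the combination against vehicle, ADU-S100 and olaparib; points are limma estimates over 12 tumors and bars are 95% intervals. The interval of Itgal lies above 0 in all 3 comparisons, before adjustment for 689 genes, and that of Icam2 is the widest.

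For 3 or more groups the study's methods name a one-way comparison with Holm-Sidak correction, here run on unlogged values over the 3 comparisons of a gene, with no correction over genes. On these values, the methods' one-way comparison called Itgal, Itgax, Selplg and Spn in each of the comparisons, 4 of 9 against 4.93% of all genes (vehicle), 5.08% (ADU-S100) and 3.77% (olaparib). Itgam, Itgb2 and the 3 ligands passed in none of them. Over the whole panel the study compared pairs of groups gene by gene, with Benjamini-Yekutieli adjustment. This unpaired comparison per gene, on log2 values, called 0 of the 9 genes and 0.0% of all genes in each of the 3 comparisons. At an unadjusted p under 0.05 it passed Itgal, Itgax, Selplg and Spn against vehicle (4 of 9, against 12.5% of all genes), Itgal and Itgax against ADU-S100 (2 of 9, against 17.7%) and Selplg and Spn against olaparib (2 of 9, against 6.39%). These 4 genes include Itgal and Selplg, chosen by the study on these tumors.

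After single treatments, none of the 9 genes passed. Against vehicle, Itgam stood at 1.02 (SE 0.63) and Itgb2 at 0.79 (SE 0.57) on the log2 scale after ADU-S100, both with a limma adjusted p of 0.809. With each tumor left out in turn, Itgam ranged from 0.42 (without vehicle tumor 1269) to 1.57 (without ADU-S100 tumor 1513) and Itgb2 from 0.28 to 1.26 (without the same tumors), and scaling to Ptprc brought them to 0.13 and -0.097. After olaparib, Vcam1 stood at 0.94 (SE 0.61, limma adjusted p = 0.585), Itgax at 0.60 (SE 0.37, limma adjusted p = 0.582) and Icam1 at 0.57 (SE 0.56, limma adjusted p = 0.710). Without tumor 1517, whose values were multiplied most, Vcam1 stood at 0.42 and Icam1 at 0.097, without vehicle tumor 1536 at 0.54 and 0.17, and Itgax stood at 0.40 without olaparib tumor 1510. Limma called 0 of 9 genes in both comparisons, 0.0% of all genes, and 0 were higher at an unadjusted p under 0.05, against 4.64% of all genes for ADU-S100 and 5.81% for olaparib. The unpaired comparison per gene passed 0 of 9 at an unadjusted p under 0.05 in both, against 7.26% of all genes for ADU-S100 and 1.6% for olaparib, and 0 after adjustment, against 0.0%. In limma none was lower at that p, against 0.145% and 1.45% of all genes, or lower without overlap, against 1.02% in either comparison. Groups did not overlap for Itgal after ADU-S100 (1 of 9, against 13.9%) and for Itgax after olaparib (1 of 9, against 3.77%). The mean was higher for 6 of 9 genes after olaparib, against 74.6% of all genes, and for 8 of 9 after ADU-S100, against 78.2%, but the median of all genes was also 0.44 higher, and scaling to equal medians turned the sign of Itgal, Itgax, Selplg, Icam2 and Vcam1. Both comparisons share the vehicle tumors.

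The interaction asks whether the effect of ADU-S100 with olaparib differs from its effect without. It was 0.79 for Itgal (SE 0.59, limma adjusted p = 0.545), 0.65 for Selplg (SE 0.55, limma adjusted p = 0.599) and -0.89 for Itgam (SE 0.89, limma adjusted p = 0.649). None of the 9 genes passed, adjusted or at an unadjusted p under 0.05, against 0.0% of all genes adjusted and, unadjusted, 1.89% higher and 9.0% lower. The estimate was above 0 for 6 of 9 genes, against 30.9% of all genes. The 95% interval of Itgal, -0.50 to 2.08, holds both no interaction and a large one. Itgal was 0.40 without olaparib tumor 1510 and 1.20 without 1517, Selplg was 0.34 without ADU-S100 tumor 1513 and 0.98 without 1506, and Itgam was -0.29 without vehicle tumor 1269 and -1.45 without ADU-S100 tumor 1513.

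Ratios of genes within a tumor do not depend on how the tumor was scaled. The ratio of Itgal to Itgb2 was 0.500, 0.153 and 0.181 in vehicle, 0.108, 0.142 and 0.277 in ADU-S100, 0.197, 0.390 and 0.491 in olaparib, and 0.450, 0.498 and 0.546 in combination tumors. The combination tumors were in the upper part of the range, together with vehicle tumor 1269 and olaparib tumor 1521. Against the 9 others the ratio was 2.11-fold higher (exact permutation p = 0.0591, adjusted 0.222 over 20 ratios). The ratios were planned as descriptions and chosen with earlier results of these data known. The adjustment over 20 does not correct for that choice. Itgam to Itgb2 was 0.687-fold the others (exact permutation p = 0.118). Itgal to Itgam was 3.07-fold higher (exact permutation p = 0.0409) and Itgal to Icam2 was 4.21-fold higher (exact permutation p = 0.0318), each with an adjusted p of 0.222. Itgb2 to Ptprc stayed between 0.607 and 1.33 in the 12 tumors and differed by 0.966-fold (exact permutation p = 0.745). The ratio of Itgal to Ptprc was 2.04-fold higher in the combination (exact permutation p = 0.0909, adjusted 0.222). That of Itgal to Cd3e, a chain of the T cell receptor complex, was 0.935-fold the others (exact permutation p = 0.855). The log2 ratio of Itgal to Cd3e had an SD of 0.79 in vehicle, 0.60 in ADU-S100, 1.13 in olaparib and 0.59 in combination tumors. With this spread the test cannot tell an unchanged ratio from a changed one.

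The lowest p among the 20 ratios was for Itgam to Csf3r, the receptor gene for granulocyte colony-stimulating factor. This ratio was 3.88 to 5.43 in vehicle, 2.50 to 3.80 in ADU-S100, 3.08 to 4.67 in olaparib, and 2.48, 1.17 and 1.53 in combination tumors. All combination tumors were lowest, the nearest by 2.48 against 2.50 in ADU-S100 tumor 1513. In olaparib tumor 1517 Itgam rests on 14 counts, and Csf3r, below Itgam in every tumor, on fewer. The ratio was 0.444-fold that of the others (exact permutation p = 0.0045, adjusted 0.0909), and none of the 20 ratios passed after adjustment.

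**Figure D3:**
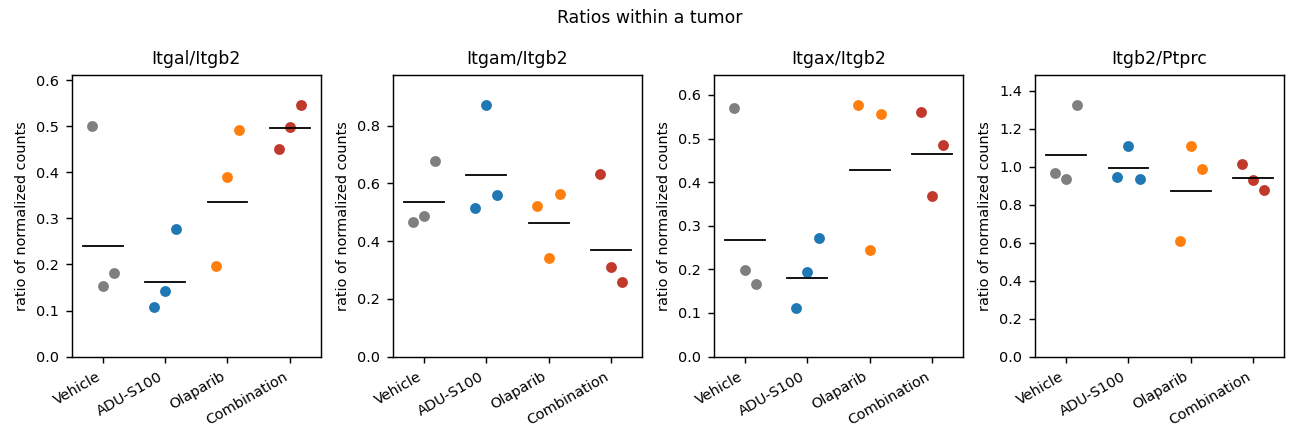
Ratios of normalized counts within a tumor by group; points are tumors and lines are geometric means of 3. Itgal to Itgb2 is 0.450 to 0.546 in the combination but reaches 0.500 in a vehicle tumor, and Itgb2 to Ptprc stays between 0.607 and 1.33 over all groups.

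The genes most like each of the 9 were found from the root mean square difference of centered log2 values over the 12 tumors, among 688 other genes. These likenesses are descriptions, and all points share their tumor's scaling. Icam2 was closest to the endothelial genes Cdh5 (0.167), Eng (0.193) and Tie1 (0.234), against a median of 1.30 over all genes. Its ratio to Cdh5, the VE-cadherin gene, lay between 0.270 and 0.426 although Icam2 itself spanned 50.7 to 1383. Itgb2 was closest to Ptprc (0.253), with Fcer1g also among its nearest 3, and Itgam to Slc11a1 (0.349), Cd200r1 and Fcer1g, with Itgb2 at rank 4 (0.472). Itgal was closest to Socs1 (0.345), Irf1 and Cd14, and Itgb2 stood at rank 267 for it (0.808) and at rank 311 for Itgax (0.787). Itgax was closest to Lcp1 (0.326), Spn and Selplg, Selplg to Il21r (0.221), Il10ra and Lcp1, and Spn to Slamf6 (0.307), Psmb8 and Cd14. Icam1 was closest to Irf1 (0.373) and Vcam1 to Tlr9 (0.342), and both had Cyld among their nearest 3.

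**Figure D4:**
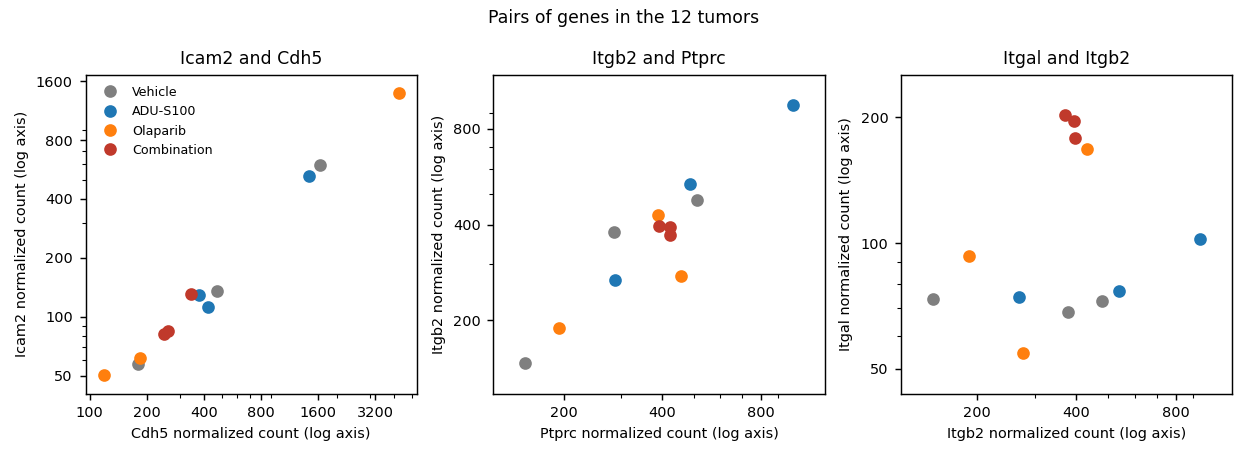
Normalized counts of Icam2 and Cdh5, Itgb2 and Ptprc, and Itgal and Itgb2 (both axes log); points are tumors colored by group. Icam2 follows Cdh5 over the whole range with a ratio of 0.270 to 0.426, while Itgal of the combination tumors is 178 to 203 at Itgb2 values of 371 to 396.

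Set against each other, the pairs with the widest spread held Icam2. The SD of the log2 ratio over the 12 tumors had a median of 0.56 for the 15 pairs of leukocyte genes, 0.95 for the 18 pairs of a leukocyte gene and a ligand, and 1.31 for the 3 pairs of ligands. The smallest was 0.36 for Itgax to Spn and the widest 1.71 for Itgax to Icam2, and Icam1 to Vcam1, at 0.49, lay below the median of the leukocyte pairs. These SDs are descriptions, with no test. The mean centered log2 value of the 6 leukocyte genes minus that of the 3 ligands was -0.05, -0.92 and 0.56 in vehicle, -0.06, 0.64 and 0.21 in ADU-S100, 0.77, -1.85 and -0.26 in olaparib, and 0.69, 0.27 and -0.01 in combination tumors. The groups overlapped, and the lowest values were those of tumors 1517 and 1529, which had the highest Icam2.

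**Figure D5:**
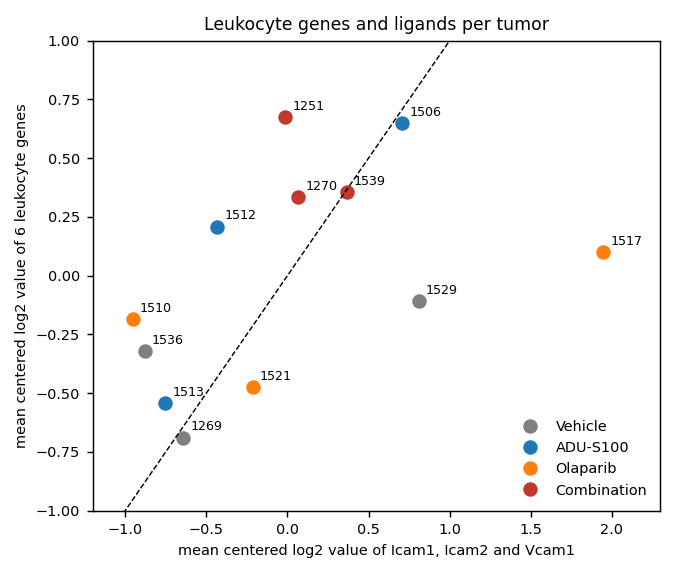
Mean centered log2 value of 6 leukocyte genes against that of Icam1, Icam2 and Vcam1 per tumor, labeled by tumor number; the dashed line marks equal values. The combination tumors have leukocyte values of 0.33 to 0.67, and tumor 1517 is far to the right with a ligand value of 1.95.

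Other adhesion genes on the panel were spread on both sides of 0. Of 26 that passed the filter, 11 had the higher mean in the combination than in vehicle, against 65.3% of all genes. In limma 0 passed, adjusted or at an unadjusted p under 0.05, and the median log2 fold change was -0.14, against 0.21 for all genes. With vehicle tumor 1529 left out, 14 of the 26 were higher and the median was 0.024. The largest was Glycam1, which encodes a mucin-like glycoprotein, at 1.99 (SE 1.38), which came from tumor 1270 alone (709, against 22.7 and 9.8 in the other combination tumors). Cd6, a T cell adhesion receptor, stood at 1.24 and Cd34 at -1.09. Sele, the E-selectin gene of activated endothelium, stood at -0.84 and Pecam1 at -0.84. Pecam1 was 2359 in vehicle tumor 1529, against 346 and 500 in the other vehicle tumors and 387 to 468 in combination tumors. Without tumor 1529 the 8 endothelial genes, Pecam1 and Cd34 among them, lay between -0.28 and 0.39. Itga4, whose product pairs into the VCAM-1 receptor, stood at 0.69, its partner Itgb1 at -0.16 and Itgae, the chain of an E-cadherin receptor, at 0.54. The 10 cytokine and NF-kB genes listed as inducers of Icam1 and Vcam1 all had higher means in the combination than in vehicle, with a median of 0.83, against 65.3% of all genes. With vehicle tumor 1536 left out, 9 of the 10 were higher and the median was 0.54. Among the 10 in all tumors, Ltb (1.77, SE 0.53) and Tnf (1.11, SE 0.48) passed at an unadjusted p under 0.05, 2 of 10 against 7.55%, and 0 passed after adjustment in limma. Ltb, like Itgal and Selplg, was among the genes the study selected on these tumors, so it is not independent evidence. For Ltb, too, the study reported a significant increase by quantitative PCR. The means of all 10 were also higher than in vehicle after ADU-S100 alone (median 0.66) and after olaparib alone (median 0.89), against 78.2% and 74.6% of all genes with a higher mean. At an unadjusted p under 0.05, 0 of the 10 passed after ADU-S100, against 4.64% of all genes, and 4 after olaparib, against 5.81%. Against ADU-S100, 9 of the 10 were higher in the combination (median 0.14), against 40.3% of all genes, and against olaparib 3 of the 10 (median -0.13), against 41.4%. Il1b stood at 0.89. Ifng did not pass the filter on low values and measured 6.1, 11.9 and 7.6 in vehicle and 8.9, 9.9 and 9.0 in combination tumors.

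Markers of cell types also differed on average between groups, with 0 genes of any list called by limma after adjustment. The 6 T cell genes all had higher means in the combination than in vehicle (median 1.52), against 65.3% of all genes, 4 of them at an unadjusted p under 0.05, against 7.55%, and 0 after adjustment in limma. Their summed level was 302 to 482 in combination, 85.9 to 187 in vehicle, 141 to 350 in ADU-S100 and 121 to 503 in olaparib tumors. The 503 was that of tumor 1517, whose few counts were multiplied by 10.5. The 8 endothelial genes all had lower means (median -0.85, 0 at an unadjusted p under 0.05), against 34.7% of all genes, with sums of 1953 to 2656 in combination and 1797, 12698 and 3001 in vehicle tumors. Without vehicle tumor 1529 their median was -0.046 and 6 of the 8 were lower. Of the 4 general leukocyte genes, 3 had higher means, against 65.3% of all genes, with sums of 2170 to 2449 in combination and 1294 to 2328 in vehicle tumors. Their median was 0.35, but -0.16 without vehicle tumor 1269, when 2 of the 4 were higher. Of the 5 macrophage and monocyte genes, 3 had higher means, against 65.3% of all genes, and the values went from -1.32 for Mrc1 to 0.91 for Cd14, with a median of 0.05. With vehicle tumor 1269 left out, 1 of the 5 was higher and the median was -0.46. With 1529 left out, the median was 0.31 and the lowest value -0.43. Cd14 alone of the 5 passed at an unadjusted p under 0.05, against 7.55% of all genes. The sums of the 5 were 4409 to 5693 in combination and 3209 to 5852 in vehicle tumors. The 6 fibroblast genes all had lower means (median -1.18, 1 at an unadjusted p under 0.05, against 0.145% of all genes), with sums of 13714 to 27430 in combination and 16406 to 85438 in vehicle tumors. With vehicle tumor 1529 left out, the median was -0.77 and all 6 were still lower. The 3 neutrophil genes all had higher means, against 65.3% of all genes (median 0.73, 1 at an unadjusted p under 0.05, against 7.55%), with sums of 1515 to 1678 in combination and 996 to 2172 in vehicle tumors. Their median was 0.41 with vehicle tumor 1269 left out, and 2 of the 3 were higher with 1529 left out. The 3 neutrophil genes were also higher than vehicle on average after ADU-S100 (median 1.17, 1 at an unadjusted p under 0.05, against 4.64% of all genes, sums of 1872 to 7656). In the olaparib tumors, where Itgam was 107 to 147, these sums were 513 to 3338. The part of these differences in the values of the adhesion genes was not tested.

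Tumor numbers began with 12 for tumors 1269, 1251 and 1270 and with 15 for the 9 remaining, a difference whose meaning the labels leave unsaid. All ADU-S100 and olaparib tumors had numbers that began with 15, unlike combination tumors 1251 and 1270. Series and treatment are therefore partly mixed where the combination is compared with a single drug. Within the first series Itgal was 73.7 in vehicle and 178 and 196 in the combination, and within the second 72.8 and 68.6 in vehicle and 203 in the combination. With the series as a block, the log2 fold changes against vehicle were 1.42 for Itgal, 1.15 for Itgax, 1.10 for Spn and 1.02 for Selplg. Without tumors 1529, 1506 and 1517, an alternative chosen after seeing the data, they were 1.42, 1.29, 1.15 and 1.09, while Icam2 went from -0.79 to 0.13 and Itgam from -0.16 to 0.11. Leaving out tumor 1529 alone also brought Icam2 to 0.13, and leaving out tumor 1517 alone turned its difference from olaparib to 0.77. The count of genes with all combination tumors above the others was 4 (Itgal, Itgax, Selplg and Spn) without combination tumor 1270, against 4.93% of all genes in the same 11 tumors.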

How the data were processed

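RNA of 12 snap-frozen tumors (100 ng each) was measured with an nCounter mouse cancer immune panel, of which the deposited table holds 750 genes. The authors deposited normalized counts, a linear signal made with nSolver 4.0 from quality control, background correction and scaling to the positive controls and to 8 housekeeping genes (their geometric mean), with a floor of 1 (12 values). Control probes were not analysed here. Such scaling assumes stable housekeeping genes and multiplies the noise of shallow tumors. Low values are whole multiples of a step in each tumor (100% within 0.01 of a count), which gave total counts of 106206 to 1519471 and factors of 0.589 to 10.5 (17.8 times apart). These counts are inferred from the deposited values and served for depth and counting intervals, not for tests, since the steps in 7 of the 12 tumors did not meet a stricter test for whole counts.

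Groups were taken from the labels. The labels do not describe how tumors were passaged, so p-values measure the spread between these tumors. Limma 3.58.1 in R 4.3.3 was fitted, as one mean per group, to log2(normalized count + 1) of the 689 genes that reached 20 in 3 or more tumors, and p-values were Benjamini-Hochberg adjusted over the 689 genes (threshold 0.05). Fold changes on this scale understate changes of low genes. On simulated data for the combination against vehicle (689 genes, 200 changed), limma recovered 1% of log2 changes of 1, 62% of 2 and 87% of 3. Exact permutation tests were two-sided, in Python 3.11.15 with scipy 1.17.1. With 3 tumors against 3 they cannot go below 0.1.

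The 9 genes, the gene lists and the ratios were chosen with earlier results of these data known. All 9 genes are named. Of the other adhesion genes, the text names the 3 with the largest change and Itga4, Itgb1, Itgae, Sele and Pecam1, and of the inducers Tnf, Il1b and Ifng. Ltb was named after its values were seen. Some items that these rules would name are not reported here. Alternatives were a pseudocount of 10, no filter or a filter at 50, median, quantile and Ptprc scaling, fits on the groups compared, a trend of the prior variance with intensity, the number series as a block, the log2 factor as a covariate, the methods' one-way comparison, its unpaired comparison per gene (chosen after seeing the data), and tumors left out. Promoter sequences come from RefSeq (GRCm38.p6). Figures were drawn with matplotlib 3.10.9.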

Additional observations from a re-analysis of the deposited data

How the results depend on the processing

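The 9 genes in 6 comparisons gave 54 fold changes, of which 25 kept their direction in all alternatives run, among them 18 of the 27 of the combination. They are 27 and 18 if the alternative without olaparib tumors 1517 and 1521 is set aside, which leaves tumor 1510 as the only one of its group, assumed to vary like the other groups. Itgal, Itgax, Selplg and Spn did so against all 3 other groups. None of the 54 passed in limma under any alternative, none passed in the methods' unpaired comparison per gene (run for the 5 comparisons of groups, not the interaction), and the methods' one-way comparison called 4 of 9 genes against each of vehicle, ADU-S100 and olaparib (4, 4 and 4, against 0 in limma). None of the values below was past a threshold, and the cause of each turn of sign was not tested. No paired analysis was possible because the groups share no tumor number. The planned count tests on recovered counts, with the authors' factors, with TMM normalization and with DESeq2's size factors, were not run, for the reason given with the processing. The precision is limited by 3 tumors per group and, in tumor 1517, by depth, with 8 to 22 counts for Spn, Itgax, Itgam, Itgal and Selplg.

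Without tumors 1529, 1506 and 1517, the sign turned for Itgam 0.11 and Icam2 0.13 (combination against vehicle), Itgb2 0.025 (combination against ADU-S100), Icam2 0.77 (combination against olaparib), Icam1 0.057 and Vcam1 -0.0060 (ADU-S100 against vehicle) and Itgb2 0.069 and Icam2 0.33 (the interaction). With Ptprc scaling, the sign turned for Itgb2 -0.18 (combination against vehicle), Itgam -0.22, Icam1 -0.11 and Vcam1 -0.17 (combination against olaparib), Itgal -0.66, Itgax -0.66, Itgb2 -0.097, Selplg -0.69, Spn -0.45, Icam2 -0.65 and Vcam1 -0.88 (ADU-S100 against vehicle), Selplg -0.10 (olaparib against vehicle) and Itgb2 0.20 (the interaction). With the number series as a block, the sign turned for Itgb2 0.063 (combination against ADU-S100), Icam2 0.22 (combination against olaparib), Icam1 0.056, Icam2 -0.26 and Vcam1 -0.042 (ADU-S100 against vehicle) and Itgb2 0.38 and Icam2 0.47 (the interaction). With the log2 factor as covariate, the sign turned for Itgb2 0.12 and Icam2 0.65 (combination against ADU-S100), Icam2 1.17 (combination against olaparib), Itgal -0.048, Icam2 -1.28 and Vcam1 -0.53 (ADU-S100 against vehicle), Selplg -0.11 (olaparib against vehicle) and Itgb2 0.76 and Icam2 2.45 (the interaction). Without olaparib tumors 1517 and 1521, the sign turned for Itgam -0.0093 and Icam2 0.92 (combination against olaparib), Itgal -0.39 and Icam1 -0.56 (olaparib against vehicle) and Itgax -0.052 and Icam2 0.68 (the interaction). In the methods' one-way comparison, the sign turned for Vcam1 -0.046 (combination against olaparib). With median scaling, the sign turned for Itgal -0.19, Itgax -0.19, Selplg -0.21, Icam2 -0.17 and Vcam1 -0.41 (ADU-S100 against vehicle), Selplg -0.25 (olaparib against vehicle) and Itgb2 0.22 (the interaction). With quantile normalization, the sign turned for Itgal -0.38, Itgax -0.32, Selplg -0.25, Spn -0.19, Icam2 -0.40 and Vcam1 -0.44 (ADU-S100 against vehicle), Itgal -0.099, Selplg -0.25 and Spn -0.27 (olaparib against vehicle) and Itgb2 0.16 (the interaction). With a pseudocount of 10, the sign turned for Vcam1 -0.00070 (ADU-S100 against vehicle) and Icam2 0.010 (olaparib against vehicle). Over the fits that omit a single tumor, the sign turned for Itgam -0.76 to 0.18, Itgb2 -0.14 to 0.71 and Icam2 -1.55 to 0.13 (combination against vehicle), Itgb2 -0.88 to 0.025 (combination against ADU-S100), Itgam -0.28 to 0.42, Icam1 -0.34 to 0.71, Icam2 -1.60 to 0.77 and Vcam1 -0.25 to 0.69 (combination against olaparib), Selplg -0.13 to 0.51, Icam1 -0.41 to 0.31, Icam2 -0.53 to 1.15 and Vcam1 -0.47 to 0.46 (ADU-S100 against vehicle), Itgal -0.0072 to 0.79, Itgam -0.89 to 0.051, Itgb2 -0.59 to 0.26, Selplg -0.069 to 0.24 and Icam2 -1.56 to 0.89 (olaparib against vehicle) and Itgb2 -0.80 to 0.17, Icam1 -0.33 to 0.71, Icam2 -1.91 to 0.54 and Vcam1 -0.29 to 0.69 (the interaction). The count of genes with all combination tumors above the others (2) was 0 with Ptprc scaling, against 1.02% of the genes, and ranged from 2 to 4 with each tumor left out, against 3.19% to 5.66% of the genes, with 4, against 4.93%, without combination tumor 1270.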
